A study of Mus musculus with 9 samples.

Results

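TGF-β ligands and SMADs were followed in bone marrow T-cells, as every probe of the nCounter Mouse Immune Exhaustion panel whose gene symbol began with Tgfb or Smad. This rule took 6 of the 785 probes, 1 for each of the ligands Tgfb1 and Tgfb2 and 1 for each of Smad2, Smad3, Smad4 and Smad9. It found 0 probes for a TGF-β receptor among the 751 probes that could be matched to a symbol, so the ligands and the intracellular arm were analysed here and the receptors were not.

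All 9 mice were female wild-type C57BL/6 mice, 6 to 8 weeks old and unirradiated, and T-cells were taken from the bone marrow at day 7 with a pan-T-cell isolation kit. The 3 mice without leukemia had no treatment. The 6 mice with leukemia received 200000 luciferase-expressing BCR-ABL1+ Arf-/- B-ALL cells by tail vein, all from 1 cell line, so the leukemia groups stand for that line only. Of these, 3 were vehicle treated, which the sample labels list as no treatment, and 3 were given rIL-12 at 1 µg per dose from day 3. The comparisons ask how T-cells of leukemia-bearing mice differ from those of mice without leukemia, and how rIL-12 alters this.

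TGF-β is a secreted cytokine that is released in a latent form and, once activated, binds a pair of serine/threonine kinase receptors on the cell surface. The receptors phosphorylate SMAD2 and SMAD3, which join the common partner SMAD4 and enter the nucleus to raise or lower target genes. SMAD9 belongs to the receptor-regulated SMADs of the bone morphogenetic protein arm. In T-cells the pathway is known for restraining effector function and for promoting Foxp3+ regulatory T-cells and the integrin CD103, and most of its activity is set by protein activation, which mRNA counts do not measure.

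Each value is the number of color-coded barcodes counted for 1 probe in 1 mouse. Total counts ran from 257613 in mouse 3 of the vehicle group to 711748. A probe for a viral gene that mice do not carry gave 53 to 114 counts, with a mean of 91.0. Since 251 other probes had a mean at or below this, a count under it does not show that a transcript is absent. Counts were scaled between mice by the TMM method and are given below as normalized counts with the SD over 3 mice. A gene was called differentially expressed where edgeR's quasi-likelihood test gave it a change of 1.5-fold or more and a Benjamini-Hochberg adjusted p, taken over the whole panel of 785 probes, under 0.05. The summed normalized count of 8 T-cell markers was 4916 to 8036 without leukemia, 3384 to 4781 with vehicle and 1686 to 3346 with rIL-12, and each of the 8 was above the mean of the viral probe in each group. In bulk RNA, fewer T-cells in the isolate and less RNA per T-cell cannot be told apart. Levels of different probes are not compared with each other, since probes differ in how well they capture their transcript. The viral probe is the exception, used only as a rough guide to background, which can differ between probes.

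In edgeR's test, which also gave the first unadjusted p-values below, no member was called in any of the 3 comparisons. Between vehicle treated mice with leukemia and mice without leukemia the count was 0 of 6, where 2.68% of all probes were called, and 0 members had an unadjusted p under 0.05. Between rIL-12 treated mice and mice without leukemia it was 0 of 6, where 17.6% of all probes were called, and 1 member, Smad4, had an unadjusted p under 0.05. Between rIL-12 and vehicle treated mice it was 0 of 6, where 13.8% of all probes were called, and 1 member, Smad2, had an unadjusted p under 0.05. DESeq2 called 0, 0 and 1 member in the same order, the last being Smad2, where it called 17.3% of all probes. The number of probes called on the whole panel, 21, 138 and 108, itself turned on single mice, and ran from 0 to 42, from 66 to 194 and from 0 to 199 when 1 mouse was left out. For rIL-12 over vehicle it was 0 without vehicle mouse 2 and 0 without rIL-12 mouse 2, where edgeR gave 167 and 109 probes at an unadjusted p under 0.05 and 1.5-fold, and 4 without vehicle mouse 3. For vehicle over no leukemia it was 0 without leukemia-free mouse 1 or 3 or vehicle mouse 3, with 61, 66 and 75 probes at an unadjusted p. The first and second comparison share the mice without leukemia, and the last shares a group with each of the others.

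**Figure D1:**
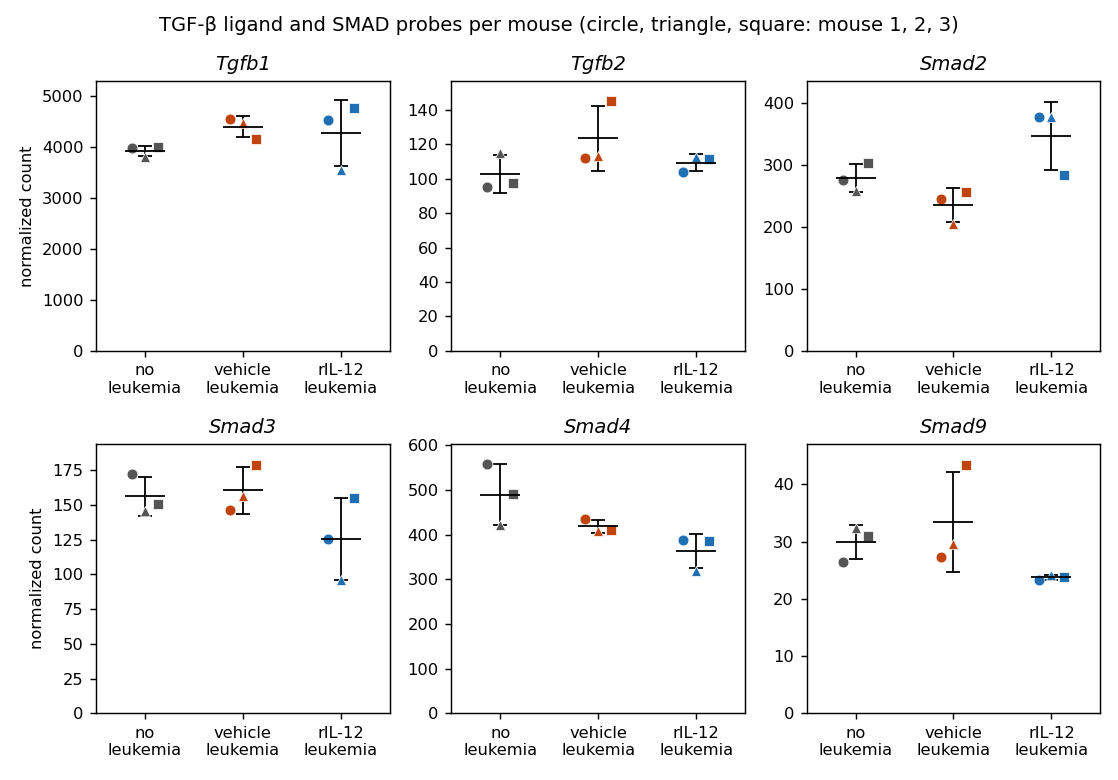
Normalized counts (vertical axes, each starting at 0) of the 6 probes in the 3 groups of 3 mice. Each symbol is 1 mouse, the long bar is the group mean and the whiskers are the SD. Smad2 lies at 283 to 378 with rIL-12 and at 204 to 256 with vehicle, while the ligands Tgfb1 and Tgfb2 overlap between these groups.

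Tgfb1 encodes TGF-β1, the main TGF-β ligand of immune cells, and was measured on transcript NM_011577.1. Its deposited counts ran from 2488 to 5218, far above the viral probe in all 9 mice. The normalized counts were 3968, 3809 and 3990 in mice without leukemia. They were 4551, 4460 and 4157 in vehicle treated mice, and 4520, 3546 and 4767 in rIL-12 treated mice. All 3 vehicle treated mice lay above all 3 mice without leukemia, and the rIL-12 treated mice fell on both sides, with mouse 2 of that group the lowest of the 9.

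The group means of Tgfb1 were 3923 ± 98.6, 4389 ± 206 and 4278 ± 645 (SD, n = 3 mice each). The log2 fold change of vehicle treated over leukemia-free mice was 0.16 ± 0.15 (SE), with a 95% interval from -0.17 to 0.49 and an adjusted p of 0.700 in edgeR's test. For rIL-12 treated over leukemia-free mice it was 0.12 ± 0.15, with an interval from -0.21 to 0.46. For rIL-12 over vehicle treated mice it was -0.04 ± 0.15, with an interval from -0.37 to 0.29. A change of 1.5-fold, which is 0.58 on the log2 scale, lay outside all 3 intervals under this scaling.

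The spread of Tgfb1 between mice was wider with rIL-12 than counting alone gives. The coefficient of variation was 15.1% among rIL-12 treated mice, where counting error would give 1.45%. It was 2.51% without leukemia and 4.69% with vehicle, where counting error would give 1.61% and 1.64%. The low value of mouse 2 sets most of the rIL-12 spread.

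Tgfb2 encodes TGF-β2, a ligand better known from development and stromal tissue, and was measured on transcript NM_009367.1. Its deposited counts were 90, 114 and 101 without leukemia, 111, 123 and 87 with vehicle, and 120, 140 and 108 with rIL-12. The viral probe gave 53, 114 and 95, then 92, 111 and 66, then 96, 105 and 87 in the same mice. Tgfb2 was above the viral probe of its own mouse in 8 of 9 mice and equal to it in the other, by margins within which background can be part of the value.

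The group means of Tgfb2 were 103 ± 10.9, 124 ± 18.8 and 109 ± 4.83 in the same order. Its log2 fold changes were 0.25 (95% interval -0.13 to 0.64) for vehicle treated over leukemia-free mice, 0.09 (-0.29 to 0.47) for rIL-12 treated over leukemia-free mice and -0.16 (-0.54 to 0.22) for rIL-12 over vehicle treated mice. The groups overlapped in every comparison. The highest normalized count, 145, belonged to mouse 3 of the vehicle group, the mouse with the lowest total count.

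Smad2 encodes a receptor-regulated SMAD that the TGF-β and activin receptors phosphorylate, and was measured on transcript NM_010754.4. The deposited counts were 260, 255 and 313 without leukemia, 243, 221 and 153 with vehicle, and 436, 469 and 274 with rIL-12. The normalized counts were 276, 258 and 303, then 245, 204 and 256, then 378, 378 and 283. The vehicle group was the lowest, with no overlap with either other group. Mice 1 and 2 of the rIL-12 group stood above all other mice, and mouse 3 lay within the range of mice without leukemia.

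The group means of Smad2 were 279 ± 22.4, 235 ± 27.3 and 346 ± 54.4 (SD, n = 3 mice each). With rIL-12 it was 1.48-fold its level with vehicle, a log2 fold change of 0.56 ± 0.17 (SE) with a 95% interval from 0.18 to 0.94. The adjusted p was 0.0463 in edgeR's test, under the threshold, and the fold change was just short of 1.5. With the adjusted p alone as the threshold, 15.7% of all probes would be called, Smad2 among them. The exact permutation p was 0.1, the smallest that 3 mice against 3 allow. Among the 785 log2 fold changes, 87.6% were lower than that of Smad2.

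The adjusted p of Smad2 turned on single mice. Without mouse 3 of the rIL-12 group the log2 fold change was 0.69 with an adjusted p of 0.00627, and Smad2 was called. Leaving out any of the other 8 mice in turn gave log2 fold changes between 0.43 and 0.64, and adjusted p-values between 0.0552 and 0.184. Against mice without leukemia, the log2 fold change of Smad2 was -0.25 with vehicle (95% interval -0.63 to 0.13) and 0.31 with rIL-12 (-0.06 to 0.69), with adjusted p-values of 0.618 and 0.251.

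Smad3 encodes the other TGF-β-regulated SMAD, which binds DNA directly, and was measured on transcript NM_016769.4. Its normalized counts were 172, 146 and 151 without leukemia, 146, 156 and 179 with vehicle, and 126, 95.9 and 155 with rIL-12. Mice 1 and 2 of the rIL-12 group were the lowest of the 9, and mouse 3 lay among the other groups, so the groups overlapped in every comparison.

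The group means of Smad3 were 156 ± 13.9, 160.4 ± 16.7 and 126 ± 29.7. Its log2 fold change was 0.03 (95% interval -0.39 to 0.46) with vehicle and -0.32 (-0.74 to 0.10) with rIL-12 over mice without leukemia, and -0.35 (-0.77 to 0.07) for rIL-12 over vehicle treated mice. The intervals with rIL-12 reach past a 1.5-fold decrease, so a change of that size was not separable from none at this depth and number of mice.

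Smad4 encodes the common SMAD that receptor-regulated SMADs of both arms bind, and was measured on transcript NM_008540.2. The deposited counts were 525, 417 and 507 without leukemia, 432, 443 and 246 with vehicle, and 447, 396 and 372 with rIL-12. The normalized counts were 557, 422 and 490.0, then 436, 409 and 411, then 387, 319 and 385. All 3 rIL-12 treated mice lay below all other mice. The vehicle group lay between, overlapping with mouse 2 of the mice without leukemia.

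The group means of Smad4 were 489.7 ± 67.7, 419 ± 15.0 and 364 ± 38.7. With rIL-12 it was 0.743-fold its level in mice without leukemia. On the log2 scale this was -0.43 ± 0.16, with a 95% interval from -0.77 to -0.08. The unadjusted p was 0.0192 and the adjusted p was 0.0772, so Smad4 was not called. Its log2 fold change was -0.22 (-0.57 to 0.12) with vehicle over mice without leukemia and -0.20 (-0.55 to 0.14) for rIL-12 over vehicle treated mice.

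Smad9 was measured on transcript NM_019483.5 and gave only 23 to 32 deposited counts, below the viral probe of its own mouse in all 9 mice. Its normalized counts were 26.5, 32.4 and 30.9 without leukemia, 27.3, 29.5 and 43.4 with vehicle, and 23.4, 24.2 and 23.8 with rIL-12. The rIL-12 treated mice were the lowest without overlap, but the counting error of a single mouse, 18.5% to 19.5%, was near the size of the differences. Smad9 was thus not detected above the viral probe at this depth, as was the case for many probes of the panel.

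Groups whose mice did not overlap were about as frequent among the members as on the whole panel. Vehicle treated and leukemia-free mice did not overlap for 2 of 6 members, Tgfb1 and Smad2, against 22.5% of all probes. rIL-12 treated and leukemia-free mice did not overlap for 2, Smad4 and Smad9, against 35.5%. rIL-12 and vehicle treated mice did not overlap for 3, Smad2, Smad4 and Smad9, against 30.7%.

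**Figure D2:**
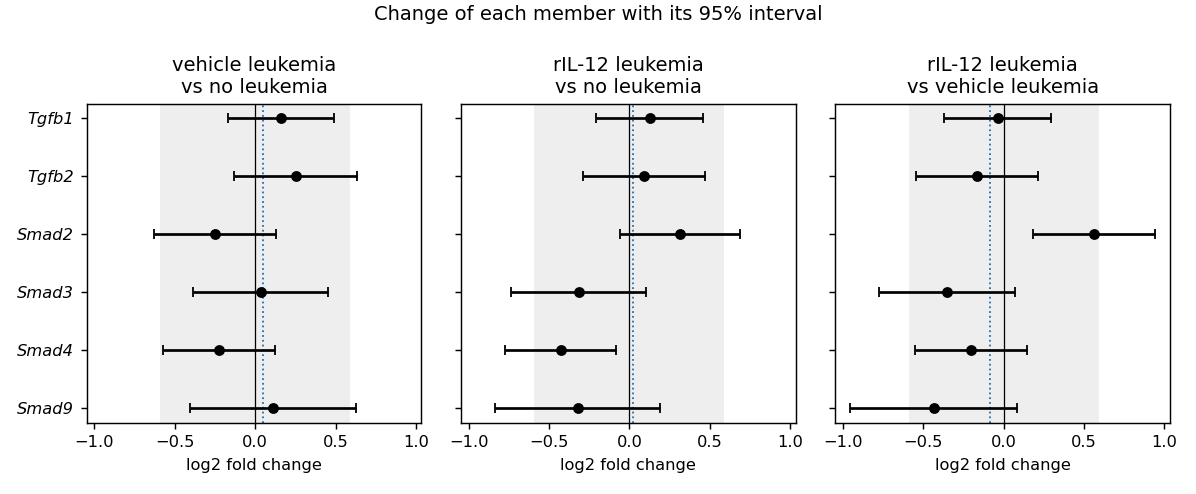
Log2 fold change (horizontal axes) of each of the 6 members in the 3 comparisons, with the 95% interval from edgeR's fit of 9 mice. The grey band covers changes under 1.5-fold, and the dotted line is the median of all 785 probes. Every point lies inside the band, and the intervals of Smad2 for rIL-12 over vehicle (0.18 to 0.94) and of Smad4 for rIL-12 over no leukemia (-0.77 to -0.08) leave out 0.

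The scaling between mice decided which SMADs were called. A factor taken from 11 housekeeping genes was 126.9% and 125.5% of the TMM factor in mice 1 and 2 of the rIL-12 group, 102.7% in mouse 3, and 84.4% to 97.9% in the other 6 mice. Under it, all probes together had a median log2 fold change of -0.49 for rIL-12 over vehicle, against -0.08 with TMM. The housekeeping genes themselves had a median of 0.40 with TMM. Of the 11, 4 were called higher with rIL-12 than with vehicle, beside 8.54% of all probes. The part of the housekeeping genes in the result of any SMAD was not tested.

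With housekeeping scaling, Smad3, Smad4 and Smad9 were called lower with rIL-12 than with vehicle, at log2 fold changes of -0.74, -0.60 and -0.84 and adjusted p-values of 0.0426, 0.0272 and 0.0405. This scaling called 29.2% of all probes in that comparison, 206 of them lower and 23 higher, where TMM gave 41 lower and 67 higher. Smad2 was then at 0.14, with an adjusted p of 0.443. With the count median as the scale, Smad2 was called instead, at 0.70 with an adjusted p of 0.0269, where 17.7% of all probes were called, 109 higher and 30 lower. With the total count alone, Smad2 was at 0.36 with an adjusted p of 0.185, and no member was called between rIL-12 and vehicle treated mice.

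Against mice without leukemia, Smad4 was called lower with rIL-12 when counts were scaled by housekeeping genes, at -0.71 with an adjusted p of 0.0125, where 15.0% of all probes were called, 96 of them lower and 22 higher. It was also called lower with the total count, at -0.60 with an adjusted p of 0.0261, where 15.3% were called, 83 lower and 37 higher. TMM gave 68 lower and 70 higher. Tgfb1 was at 0.12 with TMM, -0.16 with housekeeping scaling and -0.046 with the total count, and Tgfb2 at 0.09, -0.21 and -0.087, so the direction of the ligands with rIL-12 was not fixed by these counts.

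A change of scaling shifts all probes of a comparison by nearly the same amount. Distances from the median of all probes are therefore nearly fixed by construction, and their likeness over scalings is no check of a member. For rIL-12 over vehicle, Smad2 was 0.65 above that median with TMM, 0.63 with housekeeping scaling, 0.64 with the total count and 0.66 with median scaling. For rIL-12 over no leukemia, Smad4 was 0.45 below it in all 4 scalings, and between 15.0% and 15.4% of the probes had lower values. The medians over the 6 members were 0.07 for vehicle over no leukemia, -0.11 for rIL-12 over no leukemia and -0.18 for rIL-12 over vehicle, beside 0.05, 0.02 and -0.08 over all probes.

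**Figure D3:**
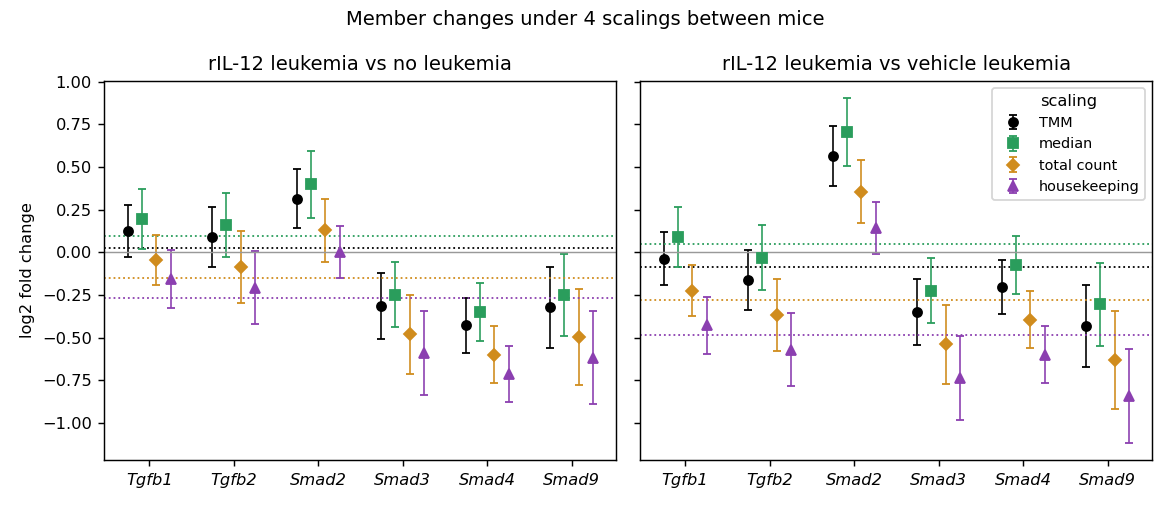
Log2 fold change (vertical axis) of the 6 members for rIL-12 treated over leukemia-free mice and for rIL-12 over vehicle treated mice, under 4 scalings between mice. Points carry the SE of edgeR's fit, and each dotted line is the median of all 785 probes under the scaling of that color. Points and medians shift together by construction: Smad2 for rIL-12 over vehicle lies 0.63 to 0.66 above the median under each scaling.

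Ratios of 2 members within a mouse need no scaling, and were chosen after the values were seen. The ratio of Smad2 to Smad4 counts was 0.495, 0.612 and 0.617 without leukemia, 0.562, 0.499 and 0.622 with vehicle, and 0.975, 1.18 and 0.737 with rIL-12. All 3 rIL-12 treated mice were above all 6 other mice, and the other groups overlapped. The geometric mean of the ratio with rIL-12 was 1.66-fold that without leukemia and 1.70-fold that with vehicle, each with an exact permutation p of 0.1, which became 0.3 and 0.25 when adjusted over 15 pairs of members.

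The ratio of Smad2 to Smad3, the 2 SMADs that TGF-β receptors phosphorylate, was 1.60, 1.77 and 2.01 without leukemia, 1.68, 1.31 and 1.43 with vehicle, and 3.01, 3.94 and 1.83 with rIL-12. It did not overlap between rIL-12 and vehicle treated mice, where it differed 1.90-fold. The exact permutation p of 0.1 became 0.25 when adjusted over 15 pairs of members. With rIL-12 mouse 3 it did overlap with mice without leukemia, with an exact permutation p of 0.2. The ratio of Smad3 to Smad4 overlapped in all 3 comparisons, with exact permutation p-values of 0.2, 0.7 and 0.4.

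The ratio of Tgfb1 to Smad4 was 7.12, 9.03 and 8.14 without leukemia, 10.4, 10.9 and 10.1 with vehicle, and 11.7, 11.1 and 12.4 with rIL-12. No mouse of 1 group lay within the range of another. It was 1.30-fold higher with vehicle and 1.45-fold higher with rIL-12 than without leukemia, and 1.12-fold higher with rIL-12 than with vehicle. Each had an exact permutation p of 0.1, which became 0.429, 0.3 and 0.25 when adjusted over 15 pairs of members.

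Over the 15 ratios, groups did not overlap for 3 between vehicle and no leukemia, 5 between rIL-12 and no leukemia and 6 between rIL-12 and vehicle. Over all 307720 pairs of probes on the panel this was the case for 24.4%, 37.6% and 29.3%. The members' shares of 20%, 33.3% and 40% were thus near those of any pair of probes, and ratios that share a member are not independent.

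**Figure D4:**
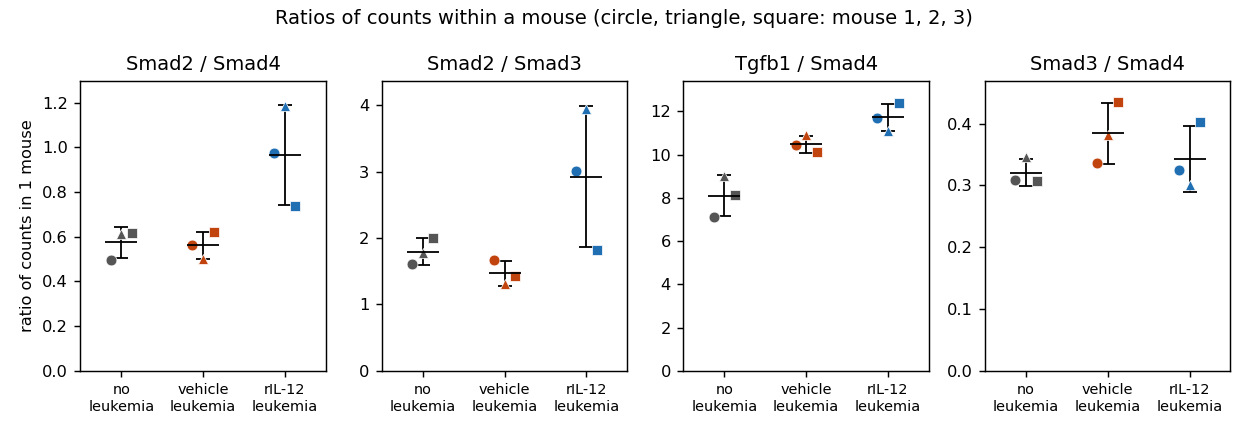
Ratio of the deposited counts of 2 members in the same mouse (vertical axes, each starting at 0), for 4 of the 15 pairs in 3 groups of 3 mice. Each symbol is 1 mouse, the long bar is the mean and the whiskers are the SD. Smad2 over Smad4 is 0.737 to 1.18 with rIL-12 and 0.495 to 0.622 in the other mice, and Smad3 over Smad4 overlaps between all groups.

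The probes whose pattern over the 9 mice was most like that of a member were found by the root mean square difference of log2 normalized counts, each centered on its mean. They are given as a description, chosen after the values were seen, since no member was called. For Smad2 they were Atp2a2 at 0.07, Yy1 at 0.09 and Cdc25a at 0.10, where the median over all probes was 0.41. For Tgfb1 they were Grb2 at 0.08, Ptpn7 at 0.09 and Tab2 at 0.09, with a median of 0.33. Tgfb1 itself varied by only 0.13 around its mean on the same measure, so any probe that varied little would lie close to it. The same measure was 0.27 for Smad2 and 0.21 for Smad4. For Smad4 they were Itga6 at 0.09, Cd84 at 0.09 and Il6st at 0.10, with a median of 0.37.

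Other genes of the pathway were taken from 6 lists drawn up from textbook knowledge. Of 21 genes for release and activation of latent TGF-β, 7 were measured, namely Itgav, Itgb3, Itgb8, Ltbp1, Mmp9, Mmp14 and Dcn. The integrins free TGF-β from its latent complex, LTBP1 tethers that complex to the matrix, and decorin binds the ligand. None of the 7 was called in any comparison, where 2.68%, 17.6% and 13.8% of all probes were called. With so few genes, the absence of calls is not a result about them. Their lowest adjusted p was 0.1235 in edgeR's test. Dcn, Ltbp1 and Itgb8 had at most 72, 47 and 76 deposited counts, under the viral probe's mean of 91.0, so a change in them could be missed. The medians of their log2 fold changes were 0.19 with vehicle and 0.08 with rIL-12 over no leukemia, and -0.11 for rIL-12 over vehicle. Of 27 other ligands and receptors of the superfamily only Bmp2 and Amh were measured. Neither was called in any comparison, beside the same shares of all probes. Amh had only 14 to 27 deposited counts, also under the viral probe.

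Of 31 partners and regulators of SMADs 7 were measured, and 2 of them were called. Foxo1, a forkhead factor that acts with SMADs and keeps T-cells quiescent, fell in both leukemia groups. Its normalized counts were 451, 253 and 403 without leukemia, 208, 142 and 167 with vehicle, and 120, 124 and 132 with rIL-12. The leukemia groups lay below all mice without leukemia. The log2 fold change was -1.09 ± 0.22 with vehicle (adjusted p = 0.0241) and -1.55 ± 0.23 with rIL-12 (adjusted p = 0.000681), and -0.46 for rIL-12 over vehicle, where it was not called. The call with vehicle was lost without leukemia-free mouse 1 or 3 or vehicle mouse 2 or 3. That with rIL-12 was kept in all 9 fits that left out a mouse. The 8 T-cell markers had medians of -0.66 with vehicle and -1.37 with rIL-12 over no leukemia. The part of this decrease in the calls of Foxo1 was not tested.

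Usp15, a deubiquitinase that acts on SMADs and their receptors, rose with rIL-12. Its normalized counts were 883, 851 and 992 without leukemia, 896, 771 and 603 with vehicle, and 1691, 1967 and 905 with rIL-12. Mice 1 and 2 of the rIL-12 group were high and mouse 3 was at the level of leukemia-free mice, the same mice that were high and low for Smad2. It was 2.01-fold higher than with vehicle (adjusted p = 0.0201), and 0.74 ± 0.25 higher on the log2 scale than without leukemia (adjusted p = 0.0499). The latter held in 1 of 9 fits that left out a mouse, the fit without rIL-12 mouse 3. The former was lost without vehicle mouse 2, vehicle mouse 3 or rIL-12 mouse 2.

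Against 1.27% of all probes called higher and 1.40% called lower with vehicle over no leukemia, these partners had 0 and 1 of 7. Against 8.92% and 8.66% with rIL-12 over no leukemia they had 1 and 1, and against 8.54% and 5.22% for rIL-12 over vehicle they had 1 and 0. Crebbp, Trim33, Ppm1a, Foxo3 and Pmepa1, an inhibitor of SMAD signaling that TGF-β itself induces, were not called. Pmepa1 was at 0.19, -0.13 and -0.32 on the log2 scale in the 3 comparisons. Its deposited counts, 32 to 71, were under the mean of the viral probe.

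Of 22 genes of the SMAD-independent arm 11 were measured. With vehicle over no leukemia 0 were called, and with rIL-12 1 was called over no leukemia, where 17.6% of all probes were called, and 1 over vehicle, where 13.8% were called. Both calls were of the same gene. Ppp2ca, the catalytic subunit of protein phosphatase 2A, had 1682, 1228 and 1769 normalized counts without leukemia, 1263, 1304 and 1262 with vehicle, and 2888, 3453 and 1742 with rIL-12. It rose by 1.08 ± 0.23 on the log2 scale over vehicle (adjusted p = 0.0151) and by 0.79 ± 0.23 over no leukemia (adjusted p = 0.0282). Mouse 3 of the rIL-12 group was again the lowest of its group, within the range of leukemia-free mice. The call over vehicle was lost without the same 3 mice as that of Usp15, and the call over no leukemia without leukemia-free mouse 1 or 2 or rIL-12 mouse 1 or 2. The median of the 11 was 0.26 for rIL-12 over vehicle, beside -0.08 over all probes, and -0.12 with vehicle over no leukemia.

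**Figure D5:**
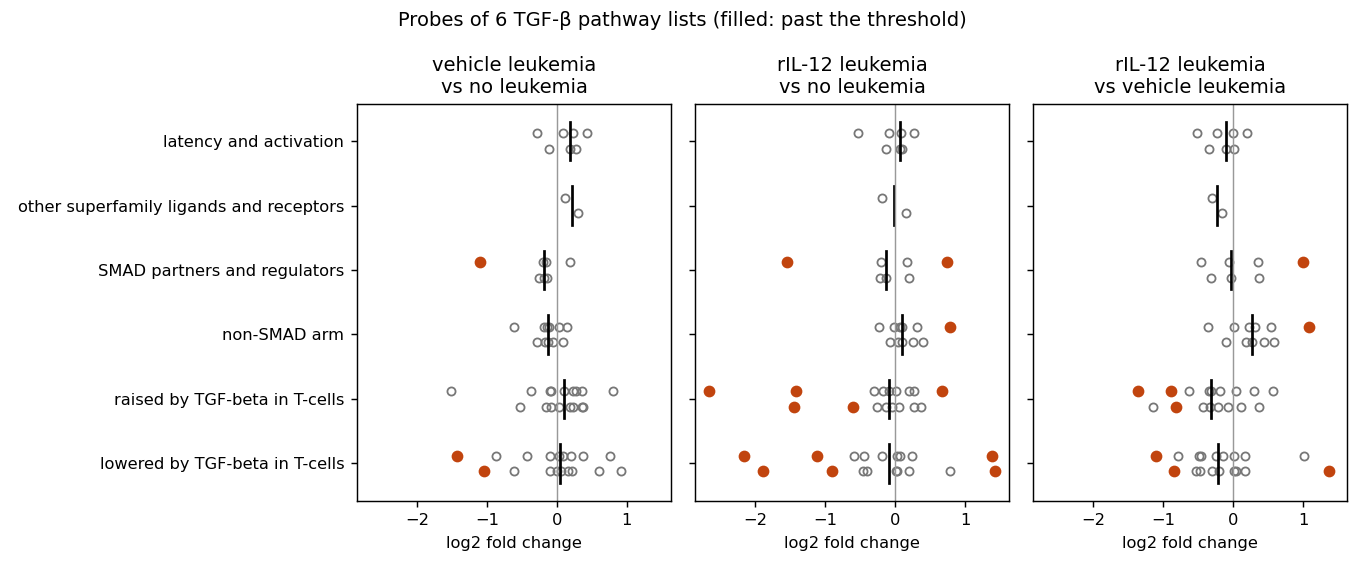
Log2 fold change (horizontal axes) of each measured probe of 6 TGF-β pathway lists in the 3 comparisons. Each circle is 1 probe, filled where it was called, and the bar is the list's median. The lists differ in size, from 2 to 18 probes, so numbers of filled circles are not comparable between lists. Itgae is the lowest at -2.66 for rIL-12 over no leukemia.

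Genes known to be raised by TGF-β in T-cells were measured with 17 probes for 16 of 28 genes. With vehicle over no leukemia 0 were called, with rIL-12 over no leukemia 1 of 17 was higher and 4 were lower, beside 8.92% and 8.66% of all probes, and for rIL-12 over vehicle 0 were higher and 3 lower, beside 8.54% and 5.22%. The medians of the list were 0.11, -0.08 and -0.32, beside 0.05, 0.02 and -0.08 over all probes. All 8 measured T-cell markers were also called lower with rIL-12 than without leukemia, with a median of -1.37, and 2 of 8 were called lower than with vehicle, with a median of -0.84. Their part in these calls was not tested.

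Itgae, which encodes the integrin CD103, had 191, 123.4 and 188 normalized counts without leukemia, 104, 24.9 and 43.4 with vehicle, and 37.2, 15.3 and 24.8 with rIL-12. It fell by 2.66 ± 0.43 on the log2 scale with rIL-12 (adjusted p = 0.00103) and was called in all 9 fits that left out a mouse. The deposited counts with rIL-12, 43, 19 and 24, were below the viral probe, so the size of the change is uncertain.

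Foxp3, the lineage factor of regulatory T-cells, had 165, 186 and 163 normalized counts without leukemia, 120, 133 and 239 with vehicle, and 39.8, 45.9 and 103 with rIL-12. All rIL-12 treated mice lay below all others. The log2 fold change was -1.45 ± 0.34 over no leukemia (adjusted p = 0.00932) and -1.36 ± 0.34 over vehicle (adjusted p = 0.0213). The deposited counts with rIL-12 were 46, 57 and 100, where the viral probe gave 96, 105 and 87. Mice 1 and 2 were thus below the viral probe, and the size of the change is uncertain. Mouse 3 was the highest of the rIL-12 group, and the first call was lost without mouse 2 of that group. The second was lost without any 1 of mice 2 and 3 of the vehicle group and mice 1 and 2 of the rIL-12 group.

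Nt5e, the ectoenzyme CD73 that makes adenosine, fell by 1.41 ± 0.26 on the log2 scale with rIL-12 over no leukemia (adjusted p = 0.00215), from 122 to 45.3 normalized counts. Entpd1, the ectoenzyme CD39 of the same route, went the other way at 0.67 (adjusted p = 0.0430 in edgeR's test). That call was lost without any 1 of the leukemia-free mice, vehicle mouse 2 or rIL-12 mouse 2. Entpd1 had 75, 72 and 97 deposited counts without leukemia, where the viral probe gave 53, 114 and 95. The size of its change is thus uncertain. Junb, an AP-1 factor that TGF-β induces early, fell by 0.82 for rIL-12 over vehicle (adjusted p = 0.0181), a call lost without vehicle mouse 2 or 3 or rIL-12 mouse 1 or 2. With rIL-12 over no leukemia Junb fell by 0.60 (adjusted p = 0.0497), a call held in 2 of 9 fits that left out a mouse. The deposited counts of Nt5e with rIL-12, 47, 54 and 50, were below the viral probe of the same mice. For rIL-12 over vehicle Nt5e fell by 0.88 (adjusted p = 0.0423), a call held in 2 of 9 fits that left out a mouse.

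Genes known to be lowered by TGF-β in T-cells were measured for 18 of 25. With vehicle over no leukemia 0 were called higher and 2 lower, beside 1.27% and 1.40% of all probes. With rIL-12 over no leukemia 2 were higher and 4 lower, beside 8.92% and 8.66%, and for rIL-12 over vehicle 1 was higher and 2 were lower, beside 8.54% and 5.22%. The medians were 0.04, -0.08 and -0.22, beside 0.05, 0.02 and -0.08 over all probes. Members of this list thus moved in both directions. The 8 T-cell markers had medians of -0.66 with vehicle and -1.37 with rIL-12 over no leukemia, and -0.84 for rIL-12 over vehicle. Of these markers 0, 8 and 2 were called lower, beside 1.40%, 8.66% and 5.22% of all probes. The part of this decrease in the calls of the list was not tested.

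Over no leukemia, the largest decreases of this list with rIL-12 were in a pair of genes that governs T-cell exit from tissue. S1pr1, the receptor for sphingosine 1-phosphate, had 896, 523 and 601 normalized counts without leukemia, 411, 293 and 271 with vehicle, and 143, 127 and 182 with rIL-12. The 3 groups did not overlap. Its log2 fold change was -1.05 with vehicle (adjusted p = 0.0310) and -2.15 with rIL-12 (adjusted p = 0.000308) over no leukemia, and -1.11 for rIL-12 over vehicle (adjusted p = 0.0151). Klf2, which drives S1pr1 transcription, was at -1.43 with vehicle (adjusted p = 0.0187) and -1.89 with rIL-12 (adjusted p = 0.000681) over no leukemia, and at -0.46 for rIL-12 over vehicle, where it was not called (adjusted p = 0.256).

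For both genes the call with vehicle was lost without any 1 of mice 1 and 3 of the leukemia-free group and mice 2 and 3 of the vehicle group, and the call with rIL-12 over no leukemia was kept in all 9 fits that left out a mouse. S1pr1 for rIL-12 over vehicle lost its call when vehicle mouse 2, vehicle mouse 3 or rIL-12 mouse 2 was left out.

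Among effector genes of this list, Klrk1, the activating receptor NKG2D, had 206, 237 and 263 normalized counts without leukemia, 246, 248 and 239 with vehicle, and 464, 1065 and 374 with rIL-12. All rIL-12 treated mice were above all others, with mouse 2 far above the rest. It rose by 1.43 on the log2 scale with rIL-12 over no leukemia (adjusted p = 0.00672) and by 1.37 over vehicle (adjusted p = 0.0155). Without rIL-12 mouse 2 these values were 0.83 (adjusted p = 0.0120) and 0.77 (adjusted p = 0.0560). The first call was lost without leukemia-free mouse 1, and the second without vehicle mouse 2, vehicle mouse 3 or rIL-12 mouse 2. Ifng, the cytokine interferon gamma, had 93.4, 138 and 127 normalized counts without leukemia, 132, 175 and 159 with vehicle, and 149, 488 and 304 with rIL-12. It rose by 1.39 with rIL-12 over no leukemia (adjusted p = 0.0113), and lost that call without mouse 1 of the leukemia-free group or mouse 2 of the rIL-12 group.

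Eomes, a T-box factor of effector and memory cells, fell by 1.12 with rIL-12 over no leukemia (adjusted p = 0.00629), a call lost without leukemia-free mouse 3, and Prf1, the pore-forming perforin, fell by 0.90 (adjusted p = 0.00508). Gzmb, the protease granzyme B, fell by 0.84 for rIL-12 over vehicle (adjusted p = 0.0259), a call held in 3 of 9 fits that left out a mouse, those without leukemia-free mouse 2, vehicle mouse 1 or rIL-12 mouse 3. With rIL-12, Eomes had 42, 66 and 42 deposited counts and Gzmb 69, 69 and 57, below the viral probe. With housekeeping scaling, the calls of Foxo1, S1pr1 and Klf2 with vehicle over no leukemia and those of Usp15, Ppp2ca, Entpd1 and Ifng with rIL-12 over no leukemia were lost, as was that of Usp15 for rIL-12 over vehicle. With the total count, those of Usp15, Ppp2ca and Entpd1 with rIL-12 over no leukemia were lost. With the replicate number as a block, those of Usp15, Ppp2ca and Junb with rIL-12 over no leukemia were lost. In a model of only the groups compared, those of Usp15, Ppp2ca and Junb with rIL-12 over no leukemia were lost. So were those of Usp15, Junb, Nt5e, Foxp3, Klrk1 and Gzmb for rIL-12 over vehicle. Median scaling ended the calls of Junb with rIL-12 over no leukemia and of Nt5e for rIL-12 over vehicle.

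Markers of other cell types were also measured. The summed NK-cell markers, of which Klrk1 is 1 of 3 measured, ran from 778 to 1080 without leukemia. They ran from 483 to 781 with vehicle and from 654 to 1245 with rIL-12. With rIL-12 over no leukemia, Klrk1 was called higher and 1 of the 3 lower, beside 8.92% and 8.66% of all probes. Klrk1 alone gave 1065 in rIL-12 mouse 2, so the sum does not show how the other NK-cell markers moved. Myeloid markers, 8 of them, ran from 2405 to 2450, 2710 to 3009 and 2516 to 3302, and 2 mast cell or basophil markers from 751 to 833, 1450 to 1753 and 1461 to 1882. B-cell or B-ALL markers, 5 of them, ran from 478 to 623, 572 to 806 and 578 to 607. No probe was at a count of 0 in any mouse, the lowest count being 5. The part of these cells in the values of the ligands and SMADs was not tested.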

How the data were processed

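The nCounter assay counted T-cell RNA of 9 mice. For each probe and mouse the authors deposited a raw whole-number count. The nSolver normalization of the study's methods is not in these values, and assay control probes were not used here. Probes were named through RefSeq transcript names for 751 of 785 probes, and 34 were tested without a symbol. All counts entered edgeR 4.0.16 in R 4.3.3 with TMM scaling, a quasi-likelihood fit of 3 groups without a replicate block, and prior count 1. Adjusted p-values are Benjamini-Hochberg values over all 785 probes. Exact permutation tests were two-sided, with 0.1 as the smallest p for 3 mice against 3. Replicates are separate mice by their labels. Counting error was taken from the deposited count of each probe. The SE and intervals come from edgeR's fit of 9 mice, which shares information on spread between probes. They are therefore not the spread of 1 probe alone.

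The members and gene lists were chosen with earlier results of these data known. Every Tgfb and Smad probe was named, and every gene of the lists that was called in a comparison. Probes like a member and ratios of members were chosen after their values were seen. Alternatives were a replicate block, scaling by housekeeping genes, total count or median, DESeq2 1.42.0, filters on a mean count of 20 or on the viral probe, a model of 2 groups, the methods' t-test, no or a 2-fold threshold, and leaving out each mouse. No label pairs same-numbered mice. Of their correlations of residuals 5 of 9 were above 0.1, among them all 3 between leukemia-free and vehicle treated mice. Different-numbered mice ranged from -0.39 to 0.23. Residuals were centered within each group, so these correlations depend on each other. A pairing was neither assumed nor excluded. No genome came with the files and no build is named, so no coordinates are given.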

Additional observations from a re-analysis of the deposited data

How the results depend on the processing

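Members called for rIL-12 over no leukemia went from 0 to 1 (Smad4) with housekeeping scaling and 1 with the total count. For rIL-12 over vehicle they went from 0 to 3 with housekeeping scaling (Smad3, Smad4 and Smad9), and to 1 (Smad2) with median scaling, 1 with DESeq2 and 1 with no fold threshold. Leaving out each mouse gave 0 to 1, the 1 being Smad2 without mouse 3 of the rIL-12 group. For vehicle over no leukemia the count was 0 in all 20 settings. The scalings differ by construction in the median of all probes, and no other cause was tested.

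Log2 fold changes near 0 turned sign. For vehicle over no leukemia, Smad3 was 0.03, -0.021 with median scaling, -0.011 with DESeq2 and -0.045 to 0.096 when a mouse was left out, and Smad9 was -0.074 to 0.23 when a mouse was left out. For rIL-12 over no leukemia, Tgfb1 was -0.16 with housekeeping scaling and -0.046 with the total count, and Tgfb2 was -0.21 and -0.087. For rIL-12 over vehicle, Tgfb1 was 0.089 with median scaling, 0.031 in the 2-group model and -0.12 to 0.081 when a mouse was left out. These were 16 sign changes among 355 values of single members under an alternative, with 9 newly called and 330 unchanged in direction and call. The settings with no or a 2-fold threshold reuse the main fit, so their signs could not turn. The 330 thus include values fixed by construction.

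With the replicate block, 0 members were called in each comparison, and Smad2 for rIL-12 over vehicle was at 0.56 with an adjusted p of 0.0599. The block changed no member's call, and of the pathway genes it ended the calls of Usp15, Ppp2ca and Junb for rIL-12 over no leukemia. Same-numbered mice correlated at 0.25, 0.11 and 0.12 between the leukemia-free and vehicle groups, at 0.01, -0.08 and -0.18 between the leukemia-free and rIL-12 groups, and at 0.33, 0.13 and 0.02 between the vehicle and rIL-12 groups. Of all probes, the 2-group model called 63 for vehicle over no leukemia where the 3-group model called 21, DESeq2 50, housekeeping scaling 3 and the methods' t-test 0. For rIL-12 over vehicle the 2-group model called 27, the t-test 0, housekeeping scaling 229 and the 2-fold threshold 49, where the 3-group model called 108. For rIL-12 over no leukemia the t-test called 0 and the 2-fold threshold 72, where the 3-group model called 138. At an unadjusted p under 0.05 and 1.5-fold, the t-test gave 56 probes for vehicle over no leukemia, 109 for rIL-12 over no leukemia and 76 for rIL-12 over vehicle. Tgfb2 and Smad9 lie near or below the viral probe, so background limits what their values show.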
